A study of Mus musculus with 235 samples.

Results

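The ventral dentate gyrus, labelled vDG, was compared between 15 mice given dexamethasone and 15 given saline as vehicle. The 30 libraries were chosen by their label and stand beside 205 libraries of the other 7 regions in the series, with 1 vDG library per animal. All animals were male C57Bl/6 mice of 3 months, with no other genotype or treatment named. Dexamethasone was injected intraperitoneally at 10 mg per kg, and the exposure lasted 4 h. Brains were perfused, and the region was punched from coronal sections, so a library holds RNA of every cell type in the punch. Messenger RNA was read from its 3′ end with unique molecular identifiers, short random tags that let copies of 1 molecule be counted once. The replicates were separate animals.

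Dexamethasone is a synthetic glucocorticoid that binds the glucocorticoid receptor, a nuclear receptor encoded by Nr3c1. The bound receptor leaves its chaperone complex, enters the nucleus and binds palindromic DNA elements, which raises some transcripts and lowers others. In the dentate gyrus, granule cells, astrocytes, microglia, oligodendrocytes and vessel cells carry this receptor, and the region also holds neural stem cells throughout adult life.

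A vDG library held between 314375 and 1110771 counts (median 785546.5). No difference between the arms was detected in totals (two-sided permutation test, p = 0.719) or in RNA integrity (RIN, 6.33 ± 1.09 for dexamethasone and 6.20 ± 1.00 for vehicle, SD, n = 15 each, permutation p = 0.755). The third quantity compared, the share of mitochondrial counts, gave a permutation p of 0.333, and all 3 adjusted values were 0.755. Levels are given below as CPM, counts scaled to a library total of 1000000.

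The tissue label was checked against marker genes. Prox1, the transcription factor that defines granule cells, had 132, 201 and 603 CPM as its lowest, median and highest vehicle level, and 45.4, 228 and 525 CPM after dexamethasone. The 8 granule cell markers summed to 279 to 1349 CPM in vehicle and 161 to 1078 CPM in dexamethasone libraries, a wide spread in both arms. Of these 8, 6 were abundant enough to be tested, and 0 passed in edgeR's quasi-likelihood test (0 at an unadjusted p under 0.05, 0 in DESeq2 and 0 in limma). The 5 CA1 pyramidal cell markers summed to medians of 265 CPM in vehicle and 231 CPM in dexamethasone libraries, the 5 markers of CA3 and mossy cells to 78.2 and 80.2 CPM, with Drd2 at 0 in every library. Granule cell markers were present, beside markers of CA1 pyramidal cells. Of the 5 markers of CA3 and mossy cells, 1, Calb2, was abundant enough to be tested.

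Dexamethasone changed 366 of the 9311 genes tested, which is 3.93%. A gene is called changed where edgeR's quasi-likelihood test gave a Benjamini-Hochberg adjusted p under 0.05 over all genes tested, and the words rose and fell are used only of such genes. Of the changed genes, 246 were higher (2.64% of genes tested) and 120 were lower (1.29%). The median log2 fold change was 0.71 for the higher and -0.64 for the lower genes. Of the 246 higher genes, 73 reached a log2 fold change of 1 and 8 reached 2. Of the 120 lower genes, 20 reached -1 and 1 reached -2. The median log2 fold change over all genes tested was -0.01. For 21 genes (0.226% of genes tested), the levels of the arms did not overlap in any library. These were 17 higher genes (0.183%), namely B4galt1, Cdkn1a, Cmtm3, Fkbp5, Gadd45g, Hacd2, Irs2, Mt2, Mthfd2, Mxd4, Phactr3, Plin4, Slc25a33, Smim3, Tiparp, Trp53inp1 and Zbtb16, and 4 lower genes (0.043%), namely Ccnd1, Cx3cr1, Sox9 and Trim59. Those of the 21 outside the size rule and the lists were named after their values were seen.

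**Figure D1:**
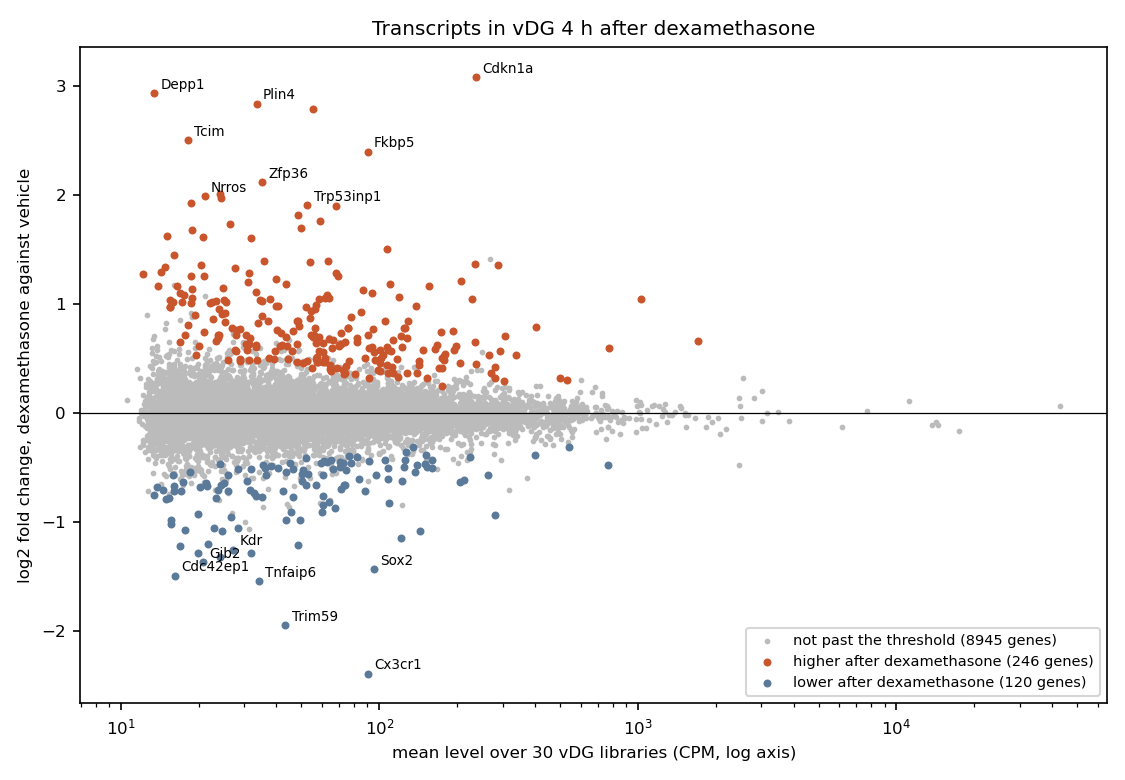
Each point is 1 of the 9311 genes tested, with its mean level over the 30 libraries (CPM, log axis) against its log2 fold change, dexamethasone against vehicle. The 246 higher genes (orange) reach a log2 fold change of 3.08 and the 120 lower genes (blue) reach -2.39, and some of the 24 genes with the largest changes are labelled.

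Among the 12 largest rises, Cdkn1a (ENSMUSG00000023067, mm10 chr17:29090979-29100722, + strand), the p21 inhibitor of cyclin-dependent kinases, had 13.1, 49.6 and 88.7 CPM as lowest, median and highest vehicle level and 239, 411 and 769 CPM after dexamethasone. The arms did not overlap, and the log2 fold change was 3.08 ± 0.21 (SE, edgeR adjusted p = 1.21e-13), the largest rise in vDG.

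Depp1, a FoxO target that acts on autophagy, was at a median of 0 CPM in vehicle libraries and 25.7 CPM after dexamethasone, with the highest vehicle library at 13.2 CPM and the lowest dexamethasone library at 6.43 CPM. Its arms overlapped in 2 dexamethasone libraries, and the other 13 exceeded every vehicle library (log2 fold change 2.93 ± 0.39, SE). Plin4 (ENSMUSG00000002831, mm10 chr17:56100591-56109803, - strand), which coats lipid droplets, ranged from 0 to 23.1 CPM in vehicle and from 29.9 to 116 CPM in dexamethasone libraries. Its arms were apart, with a log2 fold change of 2.84 ± 0.27 (SE).

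Mthfd2 (ENSMUSG00000005667, mm10 chr6:83305691-83325908, - strand) encodes a mitochondrial enzyme of folate-borne one-carbon metabolism. It had 6.61, 16.0 and 27.9 CPM as lowest, median and highest vehicle level and 57.1, 88.3 and 183 CPM after dexamethasone. No dexamethasone library came within the vehicle range, and the log2 fold change was 2.79 ± 0.18 (SE, edgeR adjusted p = 9.1e-14), the smallest p of the region. Tcim, a small regulator of transcription, went from a median of 3.51 to 21.9 CPM (log2 fold change 2.50 ± 0.34, SE), with 14 of 15 dexamethasone libraries above the vehicle maximum of 12.7 CPM.

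Fkbp5 (ENSMUSG00000024222, mm10 chr17:28399095-28517524, - strand), the co-chaperone that lowers the receptor's affinity for hormone, had 12.9, 27.1 and 42.5 CPM as lowest, median and highest vehicle level and 110, 138 and 307 CPM after dexamethasone. The lowest dexamethasone library was above every vehicle library, and the log2 fold change was 2.40 ± 0.16 (SE, edgeR adjusted p = 1.21e-13). Zfp36, the tristetraprolin protein that destabilises cytokine messenger RNA, rose from a median of 10.2 to 47.7 CPM, and 11 of 15 dexamethasone libraries exceeded the highest vehicle library at 41.9 CPM.

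A pair of further risers are known from immune cells. Ms4a6b, a membrane protein of leukocytes, rose from a median of 8.50 to 38.1 CPM. Nrros, which holds latent TGF-beta on microglia and macrophages, rose from 8.19 to 32.4 CPM, with 14 of 15 dexamethasone libraries above the vehicle maximum of 20.2 CPM.

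The last 3 of the 12 were metabolic or stress genes. Slc25a13, the mitochondrial aspartate and glutamate carrier, was the least even of them. Its dexamethasone libraries ran from 3.66 to 106 CPM around a median of 27.5 CPM, against a vehicle range of 2.23 to 28.8 CPM, and 3 dexamethasone libraries lay below the vehicle median of 8.29 CPM (log2 fold change 1.97 ± 0.37, SE). Xdh, which makes uric acid from purines, rose from a median of 6.68 to 28.4 CPM. Trp53inp1, a p53-induced regulator of growth arrest and autophagy, rose from 22.3 to 83.5 CPM with no overlap of the arms.

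**Figure D2:**
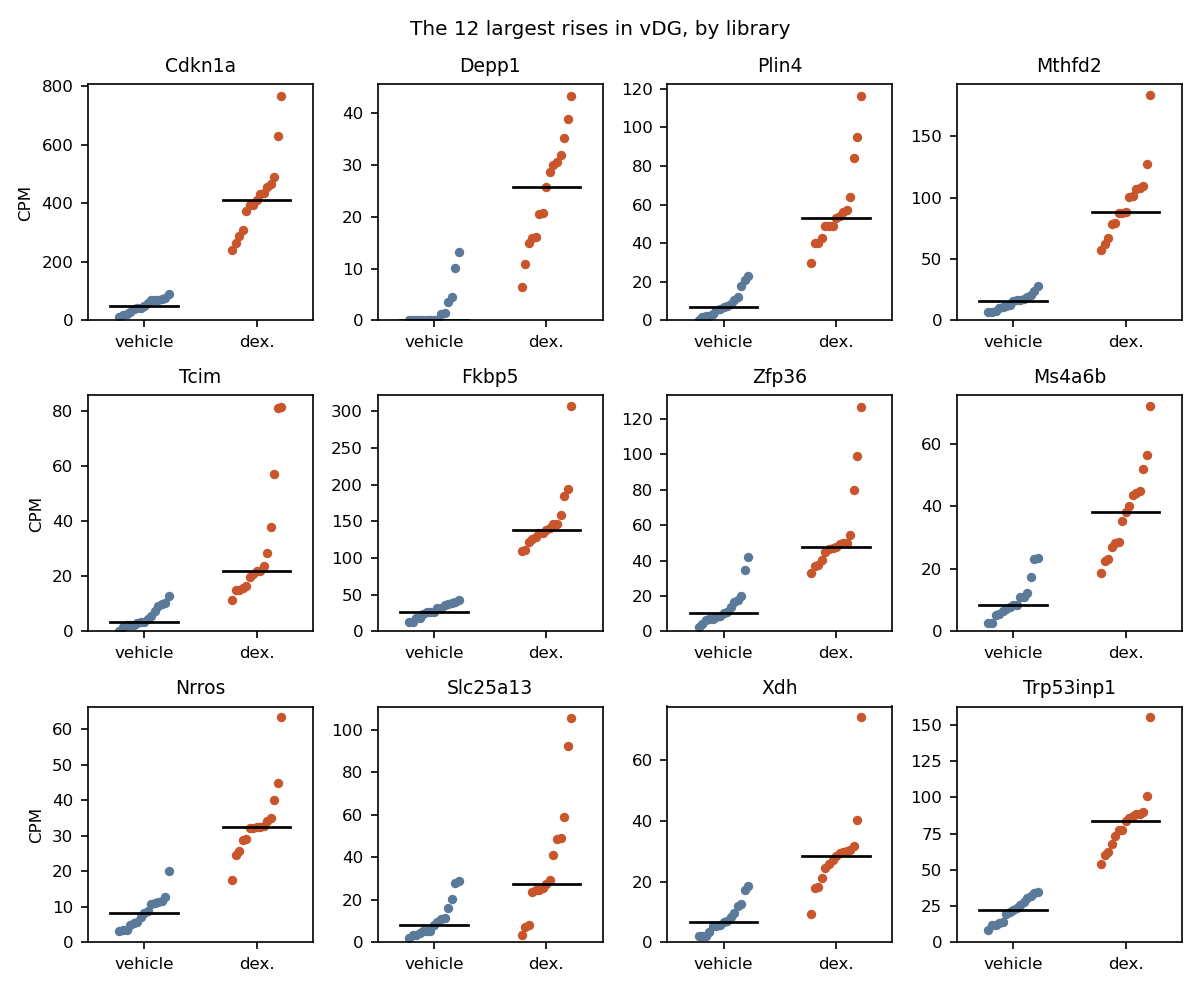
Level in CPM of the 12 genes with the largest rises in vDG, with 1 point per library (ordered by level within an arm), vehicle in blue and dexamethasone in orange, and a bar at the median of 15 libraries. Cdkn1a, Plin4, Mthfd2, Fkbp5 and Trp53inp1 show no overlap between the arms, and Slc25a13 shows dexamethasone libraries inside the vehicle range.

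The largest falls were led by a microglial receptor. Cx3cr1 (ENSMUSG00000052336, mm10 chr9:119901616-120068283, - strand), the fractalkine receptor of microglia, had 85.5, 134 and 272 CPM as lowest, median and highest vehicle level and 12.5, 26.6 and 67.0 CPM after dexamethasone. Every dexamethasone library was below every vehicle library, and the level was 5.25-fold lower (log2 fold change -2.39 ± 0.17, SE, edgeR adjusted p = 1.69e-12). Trim59 (ENSMUSG00000034317, mm10 chr3:69035288-69044755, - strand), a ubiquitin ligase of the tripartite motif family, had a vehicle range of 27.2 to 219 CPM and a dexamethasone range of 8.03 to 25.8 CPM. Here too the arms were apart (log2 fold change -1.95 ± 0.26, SE).

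Tnfaip6, a hyaluronan-binding protein induced by inflammation, fell from a median of 46.3 to 12.7 CPM, and Cdc42ep1, an effector of the Cdc42 GTPase, from 19.5 to 7.57 CPM. In both genes the highest dexamethasone libraries lay inside the vehicle range. Sox2 (ENSMUSG00000074637, mm10 chr3:34650405-34652461, + strand), a transcription factor of neural stem cells and astrocytes, had 78.4, 129 and 254 CPM as lowest, median and highest vehicle level and 35.0, 51.3 and 82.9 CPM after dexamethasone. Of its 15 dexamethasone libraries, 14 were below the lowest vehicle library (log2 fold change -1.43 ± 0.14, SE, edgeR adjusted p = 2.5e-09).

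The remaining members of the 12 follow. Gjb2, the gap junction protein connexin 26, fell from a median of 25.9 to 8.96 CPM. Ndp, whose product norrin is a ligand of the receptor Fzd4 on vessels, fell from 27.9 to 11.3 CPM, and 14 of 15 dexamethasone libraries lay below the vehicle minimum of 18.7 CPM. Sox21, Mcam, Kdr, Rasgrp3 and Sox10 had log2 fold changes from -1.32 to -1.21. Mcam is an adhesion molecule of vessels, Kdr the main signalling receptor for vascular endothelial growth factor (VEGF), Rasgrp3 a Ras activator, and Sox10 the master transcription factor of oligodendrocytes.

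**Figure D3:**
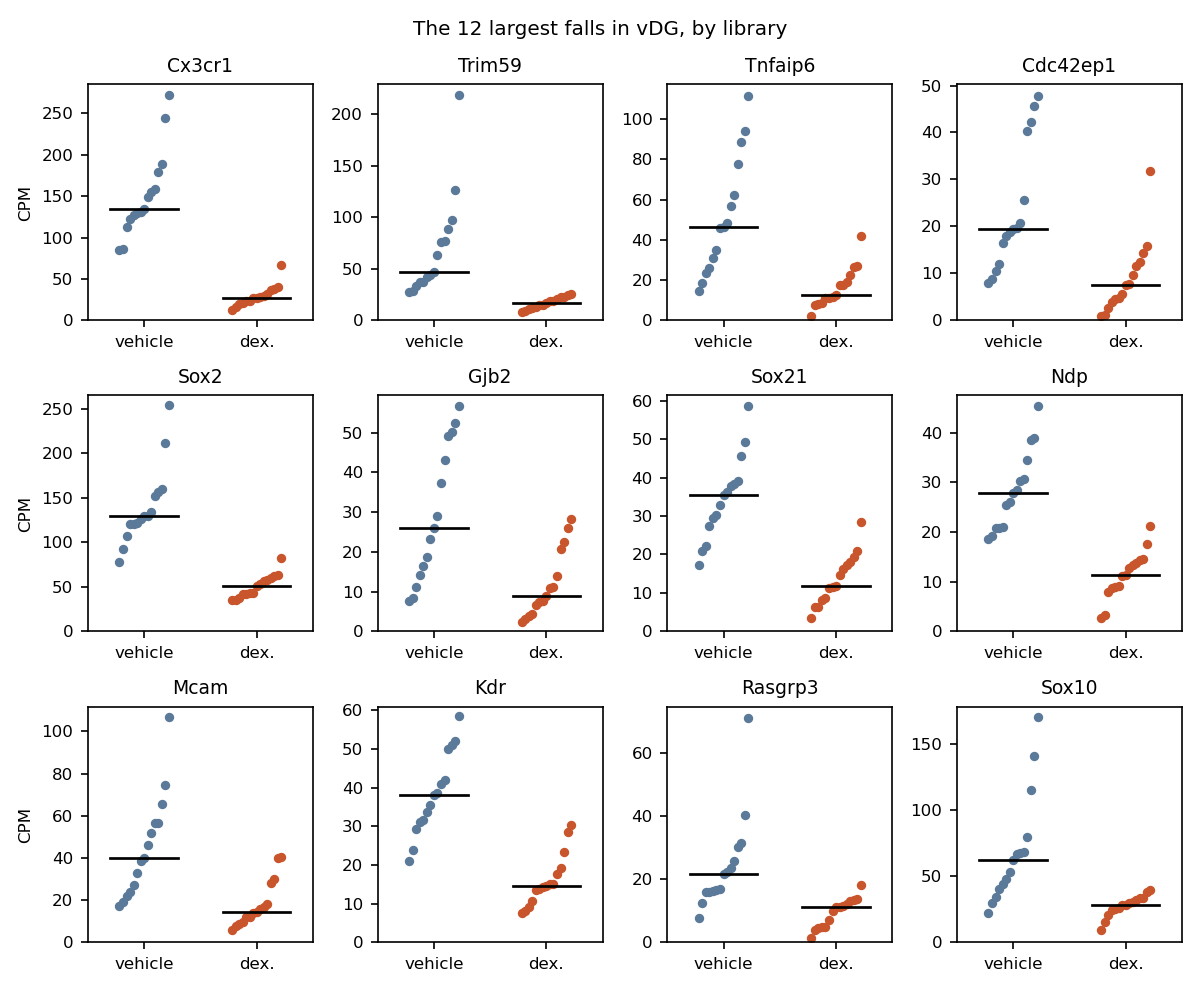
Level in CPM of the 12 genes with the largest falls in vDG, drawn as in the plot of the rises. Cx3cr1 and Trim59 show no overlap between the arms, and Sox2 and Ndp each have 1 dexamethasone library inside the vehicle range.

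Gene lists give the functions behind these changes. For each list, the number of members called is set beside the 2.64% of all genes tested that were higher and the 1.29% that were lower. Of 20 classical glucocorticoid response genes, 18 were tested, 17 rose and 0 fell, with a median log2 fold change of 1.16. This list was known from earlier results of these libraries, so it is not independent evidence of direction. Zbtb16, a transcriptional repressor, had vehicle levels of 22.9 to 55.8 CPM and dexamethasone levels of 77.9 to 116 CPM, with no overlap. Mt2, a metal-binding metallothionein, was at 369 to 928 CPM in vehicle and at 1108 to 2416 CPM in dexamethasone libraries, again with no overlap. Tsc22d3, the anti-inflammatory mediator GILZ, rose from a median of 118 to 269 CPM. Per1, a clock gene with known glucocorticoid response elements, had a log2 fold change of 0.49 ± 0.19 (SE) and missed the threshold (adjusted p = 0.187, edgeR).

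Within this list Sgk1 (ENSMUSG00000019970, mm10 chr10:21882184-21999903, + strand), a kinase of ion transport, rose from a median of 48.3 to 165 CPM. Its arms overlapped because 1 vehicle library reached 213 CPM, and all 15 dexamethasone libraries were above the vehicle median (log2 fold change 1.06 ± 0.23, SE). Its promoter is shown because Sgk1 was the single gene, of 7377 tested genes in the RefSeq promoter table, with the full palindrome GAACANNNTGTTC of the glucocorticoid receptor on either strand (0.014%). The shorter core ACANNNTGT, which lies within that palindrome, was in promoters of 4.758% of the 7377 genes, of 17 of 198 higher genes (8.586%) and of 3 of 90 lower genes (3.333%). The table lists 1 or more starts per gene, and each promoter ran from 250 bases before to 50 bases after one of them. The Sgk1 and Fam107a stretches below belong to starts inside the gene span, not to its outermost start. The shares are a description, and a match is not evidence of binding. The palindrome or core is in capitals in these 4 promoter stretches (RefSeq, GRCm38.p6, gene strand), chosen from the higher genes that hold it as well-known glucocorticoid-responsive genes.
Sgk1, chr10:21993672-21993744, + strand: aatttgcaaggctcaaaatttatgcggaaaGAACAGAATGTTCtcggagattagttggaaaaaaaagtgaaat
Mt1, chr8:94178967-94179035, + strand: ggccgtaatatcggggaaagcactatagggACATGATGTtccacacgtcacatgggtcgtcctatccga
Txnip, chr3:96557757-96557825, + strand: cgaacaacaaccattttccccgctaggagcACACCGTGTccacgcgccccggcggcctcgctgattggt
Fam107a, chr14:8309857-8309925, - strand: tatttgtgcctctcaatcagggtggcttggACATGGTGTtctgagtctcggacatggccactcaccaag

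The 3 genes printed beside Sgk1 rose as well. Mt1, the second metallothionein, had vehicle levels of 768 to 1905 CPM and dexamethasone levels of 1651 to 4094 CPM, and 8 of 15 dexamethasone libraries lay above the vehicle range. Txnip, which binds thioredoxin and limits glucose uptake, rose from a median of 36.3 to 69.3 CPM. Fam107a, an actin-binding protein of astrocytes and neurons, rose from 169 to 287 CPM, with all 15 dexamethasone libraries above the vehicle median. Their log2 fold changes were 0.66 ± 0.13 for Mt1, 0.99 ± 0.16 for Txnip and 0.65 ± 0.13 for Fam107a (SE). Exons of Gm15441 on the other strand (6 counts) cover 19.4% of Txnip exon bases. Txnip and Fam107a were named after their values were seen.

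The glucocorticoid receptor itself fell. Nr3c1 had 49.0, 87.3 and 106 CPM as lowest, median and highest vehicle level and 36.7, 53.9 and 78.7 CPM after dexamethasone. All 15 dexamethasone libraries were below the vehicle median, although the arms overlapped (log2 fold change -0.70 ± 0.11, SE, edgeR adjusted p = 2.43e-05). Nr3c2, the mineralocorticoid receptor, had a log2 fold change of -0.36 ± 0.16 (SE, edgeR adjusted p = 0.335). Of the 16 receptors, chaperones and coregulators, all tested, Fkbp5 rose and Nr3c1 fell, beside 3.93% of all genes tested that changed, and the list median was 0.00. In the heat shock list 0 of 21 tested members passed (1 at an unadjusted p under 0.05, 0 in DESeq2 and 0 in limma). Its smallest p belonged to Hspb8, a small heat shock protein, with a log2 fold change of 0.65 ± 0.23 (SE, edgeR adjusted p = 0.149).

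Genes of growth arrest rose without most of the p53 list. Of 17 tested members, 6 rose and 1 fell, and the list median was -0.03. Beside Cdkn1a and Trp53inp1, Gadd45g, a stress sensor that blocks growth, went from vehicle levels of 10.2 to 48.9 CPM to dexamethasone levels of 58.7 to 148 CPM without overlap. Ccng1, a cyclin induced by p53, rose from a median of 53.7 to 125 CPM, and Sesn1, a sestrin that restrains mTORC1, from 68.6 to 124 CPM. Ccnd1, the cyclin that starts cell division, fell from a median of 77.3 to 44.3 CPM, and its highest dexamethasone library at 63.5 CPM was below the lowest vehicle library at 65.2 CPM. Of its exon bases, 23.4% overlap Lto1 on the other strand, which had 237 counts in vDG.

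Regulators of insulin, FoxO and mTOR signalling moved upward where they passed. Of 24 tested members, 6 rose and 0 fell, with a list median of 0.09. Ddit4, the mTORC1 inhibitor REDD1, rose from a median of 54.4 to 167 CPM, although 1 dexamethasone library, at 51.4 CPM, lay below the vehicle median. Irs2, an insulin receptor substrate, was at 83.1 to 160 CPM in vehicle and 169 to 267 CPM in dexamethasone libraries, with no overlap and a log2 fold change of 0.74 ± 0.08 (SE). Sgk3, a kinase related to Sgk1, rose from a median of 22.2 to 61.7 CPM, and Klf15, a transcription factor of amino acid and glucose use, from 42.8 to 88.5 CPM.

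In fuel metabolism, a few genes of lipid release and storage rose. Of 21 tested members of the lipid droplet and fuel switch list, 5 rose and 0 fell (median 0.07). Pnpla2, the triglyceride lipase ATGL, rose from vehicle levels of 9.04 to 30.4 CPM to dexamethasone levels of 25.7 to 79.7 CPM, with 14 of 15 dexamethasone libraries above the vehicle range. Pdk4, which holds pyruvate back from oxidation, had a log2 fold change of 1.10 ± 0.25 (SE), and Lpin1, which makes diacylglycerol, one of 0.69 ± 0.16 (SE). Ppard, a fatty acid sensing nuclear receptor, had a log2 fold change of 0.57 ± 0.16 (SE, edgeR adjusted p = 0.0299), a call lost in limma, with the replicate block and in the fit on date and plate (adjusted p up to 0.0752). Of the sterol and fatty acid synthesis list, 1 of 23 tested members rose, which was Acaca, the acetyl-CoA carboxylase (log2 fold change 0.62 ± 0.17, SE). In the list of one-carbon, serine and amino acid genes, 2 of 15 rose and 0 fell. These were Mthfd2 and the amino acid transporter Slc38a2 (adjusted p = 0.0458, edgeR), whose highest dexamethasone library reached 1380.45 CPM against a median of 377 CPM. The call of Slc38a2 was lost in DESeq2, in limma, with upper-quartile scaling and without the libraries of RIN under 5 (adjusted p up to 0.155). Atf4, the transcription factor that often drives these enzymes, had a log2 fold change of -0.07 ± 0.10 (SE, edgeR adjusted p = 0.92).

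Glycogen genes were looked at as a list chosen after the values were seen, with 14 tested members, of which 2 rose and 1 fell. Ppp1r3g (ENSMUSG00000050423, mm10 chr13:35958839-35970388, + strand), a subunit that directs protein phosphatase 1 to glycogen, rose from a median of 5.65 to 22.5 CPM, and 14 of 15 dexamethasone libraries exceeded the vehicle maximum of 14.2 CPM. Ppp1r3c, a second such subunit, rose from 144 to 202 CPM. Phkg1, the catalytic subunit of the kinase that starts glycogen breakdown, fell from 35.7 to 18.5 CPM. Of its exon bases, 9.68% overlap Sumf2 on the other strand, which had 185 counts over the 30 libraries.

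Several genes of inflammatory control rose. Of 15 tested members of the NF-kappaB and inflammation list, 6 rose and 1 fell (median 0.09). Nfkbia, the inhibitor IkappaB-alpha, had 76.8, 146 and 338 CPM as lowest, median and highest vehicle level and 312, 371 and 659 CPM after dexamethasone, with overlap in 1 dexamethasone library. The 6 also held 3 genes of cytokine reception and relay. Il6ra, the interleukin 6 receptor, rose from a median of 10.2 to 28.5 CPM, Irak2, a kinase below the interleukin 1 receptor, from 10.7 to 29.5 CPM, and Il1r1, that receptor, from 13.6 to 30.3 CPM. Zfp36l1, a relative of Zfp36, fell from 71.9 to 43.7 CPM. In the interferon and MHC class I list 2 of 16 rose, Znfx1 (log2 fold change 0.98 ± 0.18, SE), an antiviral helicase, and Irf2 (0.46 ± 0.12, SE), a regulator of interferon genes, and 0 fell. The filter of edgeR kept out 14 further members. Limma, which tested 25 of the 30, also called Irf1, a transcription factor of the interferon response, and Ddx58, the RNA sensor RIG-I, lower, while DESeq2, which tested 29, called 0 lower. Irf1 had medians of 11.3 CPM in vehicle and 7.49 CPM in dexamethasone libraries, with 13 of 15 dexamethasone libraries below the vehicle median. Ddx58 had medians of 10.0 and 4.40 CPM, with 14 of 15 below.

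A few feedback inhibitors of growth factor signalling changed, in both directions. Of 15 tested MAPK and ErbB feedback genes, 2 rose and 1 fell. Errfi1, which blocks the EGF receptor, rose from a median of 27.2 to 85.7 CPM, and Dusp1, a phosphatase of MAP kinases, from 33.0 to 63.8 CPM. Spry2, which restrains Ras signalling, fell from 90.5 to 52.8 CPM, with 11 of 15 dexamethasone libraries below every vehicle library. In the list of neurotrophins and growth factors, 1 of 22 rose, which was the FGF receptor Fgfr1, from a median of 144 to 207 CPM. Bdnf, the neurotrophin of granule cells, had a log2 fold change of -0.16 ± 0.21 (SE, edgeR adjusted p = 0.92). In the TGF-beta, BMP and Id list, Smad1 rose (log2 fold change 0.63 ± 0.13, SE) and Id3 fell, and the other 18 tested members did not pass. Id3 (ENSMUSG00000007872, mm10 chr4:136143497-136145755, + strand), an inhibitor of differentiation factors, had 101, 161 and 272 CPM as lowest, median and highest vehicle level and 43.9, 69.4 and 117 CPM after dexamethasone, and 13 of 15 dexamethasone libraries were below the vehicle range.

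Lists of neuronal receptors and channels are read against the 3.93% of all genes tested that changed, and at that share 0 calls in a short list is no result about its members. In the glutamate receptor list 0 of 20 tested members passed (0 at an unadjusted p under 0.05), in the GABA receptor list 0 of 12 (1 at an unadjusted p under 0.05) and in the calcium and sodium channel list 0 of 27 (1 at an unadjusted p under 0.05). DESeq2 and limma also called 0 in each of these 3 lists. The smallest p values belonged to Grm3 among the glutamate receptors (log2 fold change -0.13 ± 0.13, SE) and to Scn3b among the channels (0.40 ± 0.18, SE). The glutamate receptors spanned log2 fold changes of -0.17 to 0.11 and the channels -0.31 to 0.44. Of 37 tested potassium channels, 3 were higher (against 2.64% of all genes tested) and 0 lower, and a difference from the other channel lists was not tested. The 3 were the leak channels Kcnk2 (median 84.8 to 133 CPM) and Kcnk1 (81.0 to 110 CPM), and the sodium-activated channel Kcnt1, whose highest vehicle library at 110 CPM lay above the dexamethasone median of 68.2 CPM and whose call was lost in 10 of 30 fits that left out 1 library. Exons of A430027H14Rik on the other strand (78 counts) cover 12.2% of Kcnk2 exon bases.

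Of 16 activity response genes, 1 rose and 1 fell. Btg2, which slows cell division, rose from a median of 22.2 to 36.2 CPM, and Ier5, an immediate early gene, fell from 120 to 81.6 CPM. Arc and Egr1, which mark recent firing, had log2 fold changes of 0.09 ± 0.29 and -0.24 ± 0.24 (SE), and neither passed. Of 19 clock genes, Rora rose and Rorb and Bhlhe41 fell, with log2 fold changes of 0.42 ± 0.11, -0.43 ± 0.10 and -0.43 ± 0.12 (SE). Of 30 axon guidance and adhesion genes, 1 fell, which was Sema6d (-0.57 ± 0.12, SE).

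Several transcription factors of neural stem cells and glia fell. In the adult neurogenesis list, 16 members were tested, Sox4 rose and Sox2 and Hes5 fell. Sox4 is expressed in newborn neurons and rose from a median of 51.4 to 80.3 CPM. Exons of Gm26735 on the other strand cover 54.6% of its exon bases, but that model had 0 counts in vDG. Dcx, the marker of newborn granule neurons, had a log2 fold change of -0.06 ± 0.15, and Hopx, a marker of stem cells and astrocytes, one of -0.18 ± 0.14 (SE), and neither passed. The Sox, Notch and hedgehog lists that follow were chosen after the values were seen. Of 11 tested Sox genes, 5 fell and 1 rose. Sox9 (ENSMUSG00000000567, mm10 chr11:112782224-112787760, + strand), a factor of astrocytes and stem cells, had 294, 343 and 543 CPM as lowest, median and highest vehicle level and 149, 179 and 293 CPM after dexamethasone. The arms met but did not overlap (log2 fold change -0.94 ± 0.10, SE, edgeR adjusted p = 1.57e-08). Sox1 fell from a median of 44.1 to 24.2 CPM.

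Of 17 tested Notch pathway genes, 4 fell and 1 rose. Hes5, the repressor that Notch induces, fell from a median of 51.0 to 24.2 CPM, Nrarp, a feedback inhibitor that Notch also induces, from 53.9 to 32.5 CPM, and Hey1, a second repressor, from 84.0 to 63.5 CPM. Dtx4, a ligase of the Deltex family, fell from 47.9 to 32.9 CPM, and Lfng, which adds sugars to Notch, rose from 23.8 to 52.8 CPM. Of Nrarp exon bases, 79.4% overlap Gm38287 on the other strand, which had 1 count in vDG. The sequence GTGGGAA, the binding motif of the Notch effector RBPJ, was in promoters of 7.266% of the 7377 genes on either strand, of 7 of 90 lower genes (7.778%) and of 13 of 198 higher genes (6.566%). The Hes5 promoter holds it once on each strand, and both stretches are shown (RefSeq, GRCm38.p6, gene strand, motif in capitals).
Hes5 first stretch, chr4:154960673-154960733, + strand: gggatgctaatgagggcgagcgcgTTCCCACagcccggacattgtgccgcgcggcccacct
Hes5 second stretch, chr4:154960810-154960876, + strand: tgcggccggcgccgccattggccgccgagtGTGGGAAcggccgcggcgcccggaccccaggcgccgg

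Of 6 tested hedgehog pathway genes, Ptch1 and Cdon fell, with log2 fold changes of -0.91 ± 0.15 and -0.71 ± 0.20 (SE). Ptch1, the hedgehog receptor that its own pathway induces, had a vehicle range of 35.9 to 109 CPM and a dexamethasone range of 17.3 to 43.4 CPM, and Cdon is a co-receptor. The call of Cdon was lost in limma, in the fit on date and plate and without the libraries of RIN under 5 (adjusted p up to 0.0817), and Gli3, a transcription factor of the pathway, was called lower in limma and with upper-quartile scaling.

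Vessel genes changed in both directions. Transporters of the blood-brain barrier split: Slc2a1, the glucose transporter GLUT1, rose from a median of 85.2 to 197 CPM, with 13 of 15 dexamethasone libraries above the vehicle maximum of 167 CPM. Mfsd2a, the lipid transporter of brain endothelium, rose from 40.3 to 93.2 CPM, and Abca1, a cholesterol exporter, from 50.1 to 96.4 CPM. Slco1a4, an organic anion carrier, fell from 106 to 65.0 CPM, Slco1c1, a carrier of thyroxine, from 30.5 to 17.6 CPM, and Slc16a1, the lactate carrier MCT1, from 34.2 to 22.0 CPM. In all, 2 of 18 tested solute carriers of the vessel wall and glia rose and 3 fell. Of 16 endothelial markers 12 were tested, of which Mfsd2a rose and Kdr, Slco1a4, Flt1 and Egfl7 fell, and 8 of the 12 had a negative log2 fold change. Cldn5, the tight junction protein, was too low for the filter of edgeR, with medians of 13.1 CPM in vehicle and 4.75 CPM in dexamethasone libraries and all 15 dexamethasone libraries below the vehicle median. DESeq2 and limma called it lower, and limma also called Ptprb, a phosphatase of endothelium. The 16 markers summed to 474 to 870 CPM in vehicle and 477 to 839 CPM in dexamethasone libraries, with medians of 749 and 612 CPM. These sums include the changed markers themselves, and the median log2 fold change of the 12 tested was -0.12. In bulk tissue, fewer cells of a type and less RNA per cell cannot be told apart. The part of single genes in the sums was not tested.

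A list of vessel growth ligands and receptors, chosen after the values were seen, had 16 tested members, of which 4 rose and 6 fell. Kdr (ENSMUSG00000062960, mm10 chr5:75932827-75978458, - strand) had vehicle levels of 21.0 to 58.4 CPM and dexamethasone levels of 7.61 to 30.4 CPM, with 12 of 15 dexamethasone libraries below the vehicle range. Flt1, the decoy receptor for VEGF, fell from a median of 157 to 93.2 CPM, and Vegfa itself had a log2 fold change of 0.16 ± 0.11 (SE, edgeR adjusted p = 0.73). The norrin ligand Ndp fell while its receptor Fzd4 rose from 17.0 to 43.7 CPM and the co-receptor Lrp6 from 84.3 to 142 CPM. The sphingosine phosphate exporter Spns2 rose from 40.8 to 78.1 CPM while the receptor S1pr1 fell from 246 to 158 CPM. Calcrl, the adrenomedullin receptor, had a log2 fold change of -0.72 ± 0.20 (SE), its partner Ramp2 one of 0.71 ± 0.16 (SE), with 33.4% of Ramp2 exon bases shared with a gene on the same strand, and the chemokine Cxcl12 fell from 51.1 to 42.4 CPM.

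In the basement membrane list, also chosen after the values were seen, 3 of 10 tested members rose and 1 fell. The collagen chains Col4a1 and Col4a2 had log2 fold changes of 0.84 ± 0.14 and 0.48 ± 0.13 (SE), the laminin chain Lamc1 one of 0.61 ± 0.17 (SE), and the laminin receptor Itga6 fell from a median of 62.8 to 31.7 CPM. With limma on the authors' values 1 member, Col4a1, was higher and 1 lower, and Col4a2 and Lamc1 lost their calls. Of 23 tested genes of small GTPases and actin, again chosen after the values were seen, 7 rose and 1 fell. Phactr3, a regulator of protein phosphatase 1 and actin, went from vehicle levels of 98.1 to 175 CPM to dexamethasone levels of 185 to 317 CPM without overlap. Rhou and Rhob, both small GTPases, had log2 fold changes of 1.10 ± 0.15 and 0.78 ± 0.11 (SE), and Rnd3, an atypical member of the same superfamily, one of -0.99 ± 0.18 (SE). Of 23 nuclear receptors, a list of the same kind, 3 rose and 2 fell. Ppara, the fatty acid sensor, rose from a median of 5.53 to 15.6 CPM, and the other changed members were named above.

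**Figure D4:**
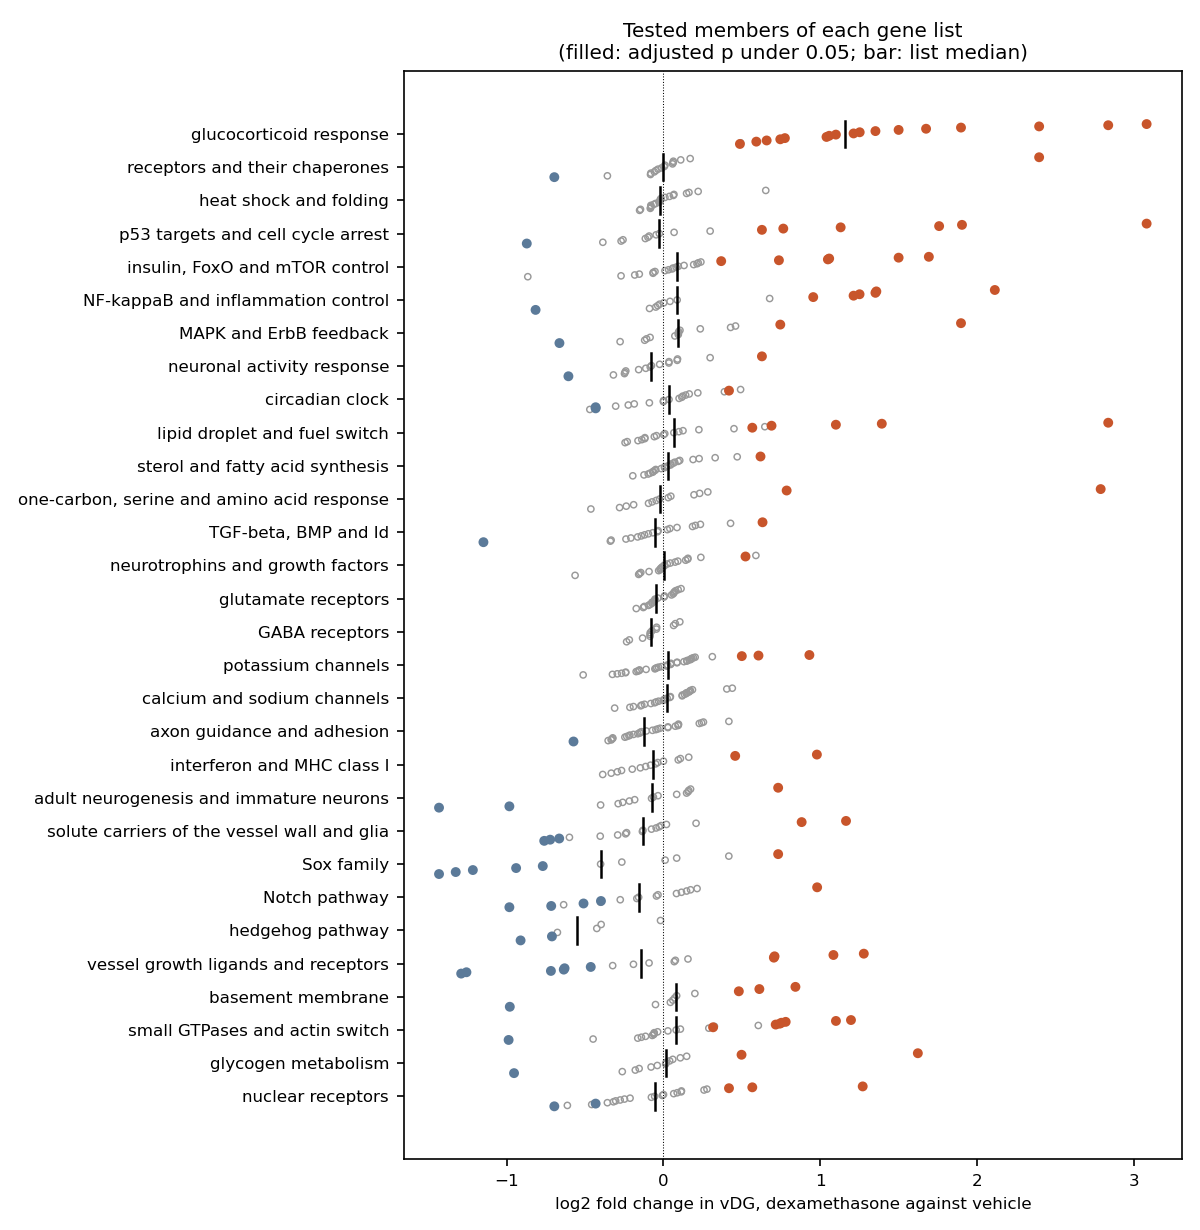
Log2 fold change in vDG of the tested members of 22 function lists and of 8 lists chosen after the values were seen (Sox family to nuclear receptors, at the bottom), with 1 point per gene, filled where the adjusted p was under 0.05, and a bar at the median. The glucocorticoid response list has 17 of 18 members filled to the right, and the glutamate receptors, GABA receptors and calcium and sodium channels lie between -0.31 and 0.44 with none filled.

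Marker levels of glia were compared beside these changes. Of 20 microglial markers, 12 were tested, 0 rose and 3 fell, with a median log2 fold change of -0.25. The 3 were Cx3cr1, P2ry12, a purine receptor (log2 fold change -1.06 ± 0.19, SE), and Itgam, an integrin (-0.71 ± 0.18, SE), which shares 68.7% of its exon bases with a gene on the same strand. Of the 12, 11 had a negative log2 fold change. P2ry13, another purine receptor, was too low for the filter of edgeR, but its dexamethasone libraries (0 to 7.05 CPM) all lay below its vehicle libraries (7.71 to 20.7 CPM). Gpr34, an orphan receptor, was also filtered out, with medians of 12.7 CPM in vehicle and 2.72 CPM in dexamethasone libraries. DESeq2 and limma, which tested all 20 markers, called 5 lower, the 3 above and these 2. Csf1r, the receptor on which microglia depend, was at medians of 38.6 CPM in vehicle and 39.8 CPM in dexamethasone libraries and did not pass. The 20 markers summed to 498 to 1466 CPM in vehicle and 321 to 892 CPM in dexamethasone libraries, with medians of 762 and 526 CPM and no marker at 0 in every library. This sum includes Cx3cr1 and the other markers called lower, so it is not a separate measure of microglial content. The part of microglial content in the fall of Cx3cr1 was not tested.

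Of 14 oligodendrocyte markers, all tested and all with a negative log2 fold change (median -0.46), Sox10, Opalin and Aspa fell. Opalin, a myelin membrane protein, had a log2 fold change of -1.07 ± 0.29 and Aspa, an aspartate-cleaving enzyme of myelin-forming cells, one of -1.06 ± 0.30 (SE). Mbp, an abundant myelin gene, had a log2 fold change of -0.15 ± 0.27 (SE) and did not pass. The 14 markers summed to 2321 to 18915 CPM in vehicle and 1847 to 12190 CPM in dexamethasone libraries, a wide spread in both arms, with medians of 6570 and 5139 CPM. With the level of 5 myelin genes as a covariate, an alternative added after the data were seen, 458 genes passed in place of 366, with 364 shared, and Sox10, Opalin and Aspa passed again. Opalin lost its call without the libraries of RIN under 5 and with surrogate variables, and Aspa without the libraries of RIN under 5. The part of oligodendrocyte content in these results was not tested further.

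Among 15 astrocyte markers, all tested, Slco1c1 fell and 0 rose, and the markers summed to medians of 10167 CPM in vehicle and 10087 CPM in dexamethasone libraries. Aqp4, the water channel of astrocyte endfeet, had medians of 318 and 222 CPM and missed the threshold in edgeR (adjusted p = 0.071), while DESeq2 called it lower. In the lists of interneurons (8 tested), mural cells (5), choroid plexus (2) and blood (4), 0 members passed by edgeR, DESeq2 or limma, with 1 interneuron gene and no other at an unadjusted p under 0.05. The choroid plexus markers reached 885 CPM in 1 vehicle library and 3203 CPM in 1 dexamethasone library, against medians of 62.8 and 64.9 CPM. Neu4, a sialidase, rose among 5 tested markers of oligodendrocyte precursors (log2 fold change 0.71 ± 0.20, SE).

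Some calls near the threshold depended on which libraries were included. Of the 105 changed list members, 89 passed in each of 30 fits that left out 1 library, and 16 did not. Rora lost the call without dexamethasone replicate 3 or 13 (adjusted p up to 0.051), Col4a2 without vehicle replicate 4 or dexamethasone replicate 10 (up to 0.0642), and Acaca without vehicle replicate 6 or dexamethasone replicate 4, 5 or 14 (up to 0.0688). Lamc1 and Ier5 lost it in 7 of the 30 fits each, Bhlhe41 and Ppard in 9, Kcnt1 in 10, Aspa in 11, Cdon in 13, Slc38a2 and Neu4 in 14, Calcrl and Cxcl12 in 15, and Foxo3 and Gjb6 in 16. Their highest adjusted p values lay between 0.0634 for Bhlhe41 and 0.136 for Slc38a2 (edgeR). Other settings also ended calls of genes named here, besides those given with their genes above. Without the libraries of RIN under 5, the calls of Bhlhe41, Calcrl, Col4a2, Cxcl12, Hey1, Itgam, Man1c1, Pmvk, Ranbp3l and Rora were lost. In limma those of Acaca, Foxo3, Gjb6, Ier5, Lncpint, Man1c1, Neu4, Pmvk and Sharpin were lost, and with upper-quartile scaling those of Foxo3, Gjb6, Lncpint and Pmvk. The date and plate fit ended the calls of Man1c1 and Neu4, surrogate variables those of Casp6, Itgam and Prodh, the myelin covariate that of Man1c1, and testing without a filter those of Lncpint, Pmvk and Prodh.

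The response of vDG was then set against that of other regions, which came from the same animals. The difference of the log2 fold changes was tested for every gene against dDG, the other dentate punch of the series, against vCA1, the ventral CA1 punch, and against the mean of the other 7 regions. In each test 0 genes passed in edgeR (0.0% of 9782, 10037 and 11053 genes), with 371, 365 and 366 genes at an unadjusted p under 0.05, and DESeq2 also called 0 in each. These fits had no term for the animal, so libraries of the same mouse were treated as independent. With the animal as a replicate block 0 genes passed, with smallest adjusted p values of 0.999, 0.771 and 0.247 (edgeR). For the changed genes of vDG, the median absolute difference of log2 fold changes was 0.19 against dDG, 0.15 against vCA1 and 0.14 against the mean of the 7, beside median standard errors of 0.21, 0.20 and 0.15. Of these genes, 50 of 365, 29 of 366 and 35 of 366 had an unadjusted p under 0.05, and the 95th percentiles of the absolute difference were 0.61, 0.56 and 0.43. The genes were chosen on the vDG libraries that enter each difference, so these counts are a description. On simulated counts, the test against dDG recovered 18.4% of genes whose response differed by 0.75 on the log2 scale. Of genes that differed by 1.5 it recovered 96.9%. The test against vCA1 recovered 23.1% and 93.6%, so these 2 tests recovered few differences of the smaller size. The test against the mean of the 7 recovered 60.9% and 100%. The simulation gave every gene the same spread, had no effect of shared animals and changed genes above a minimum mean count. Recovery in the real counts was not measured.

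For each test, the 3 genes of smallest p follow with their intervals. The intervals are not adjusted for the number of genes tested, and none of these differences passed. Against dDG, Fkbp5 had the smallest p: its log2 fold change was 2.40 in vDG and 1.65 in dDG, and the difference was 0.74 (95% interval 0.35 to 1.13, adjusted p = 0.99975, edgeR). Osbpl2, a sterol-binding protein, and Klhl20, a ubiquitin ligase adaptor, followed, with differences of 0.69 (95% interval 0.31 to 1.07) and -0.66 (-1.02 to -0.30). Both had an adjusted p of 0.99975 (edgeR). Against vCA1, Ptgfrn, a membrane partner of tetraspanins, had a log2 fold change of 0.73 in vDG and 1.62 in vCA1, a difference of -0.89 (95% interval -1.27 to -0.51, adjusted p = 0.202, edgeR). Psmg1, a proteasome assembly chaperone, and Cavin2, a coat protein of caveolae, came next, at -0.91 (95% interval -1.38 to -0.44) and -1.03 (-1.59 to -0.48). Each had an adjusted p of 0.999917 (edgeR).

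Against the mean of the other 7 regions, Mthfd2 came first, with a difference of 0.75 (95% interval 0.41 to 1.09, adjusted p = 0.264, edgeR). Its log2 fold change was 2.79 in vDG, 2.59 in dDG, 2.69 in vCA1, 2.86 in dCA1 and 2.83 in PFC, but 1.08 in PVN and 0.90 in CER, with AMY between these and the hippocampal values. The vDG value lay among those of the hippocampal punches and PFC. Slc22a8, an organic anion transporter of vessels and choroid plexus, and Apbb1ip, an integrin adaptor, followed with differences of 0.75 (95% interval 0.37 to 1.14) and 0.73 (0.35 to 1.10), although their own log2 fold changes in vDG, -0.13 and 0.06, did not pass. The adjusted p of both differences was 0.551 (edgeR).

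Side by side, each region's own fit called 344 of the 366 changed genes of vDG in at least 1 other region and 101 in all 7. The same shares over all genes tested are not given here, so these counts are a description. Of the other 22, 4 were tested in vDG alone, among them Tcim and Sult1a1, a sulfotransferase. The 22 were Calcrl, Casp6, Cdyl2, Chst10, Hcfc1, Hist2h2be, Ilk, Irf2, Itgam, Lncpint, Man1c1, Mbd1, Mcl1, Pdk4, Pmvk, Ppara, Prodh, Psmg1, Ranbp3l, Sharpin, Sult1a1 and Tcim, named after their values were seen. Of Ilk exon bases, 89.7% overlap Taf10 on the other strand (1198 counts). A call in 1 region and not in another is no test of a difference, and in each of the 3 tests of a difference none of them passed. Depp1 was tested in 1 other region, vCA1, where its log2 fold change was 2.34. Among the largest falls, Cx3cr1 ranged over the other 7 regions from -2.34 to -2.02, against -2.39 in vDG, and Kdr from -2.13 to -1.35, against -1.26 in vDG.

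**Figure D5:**
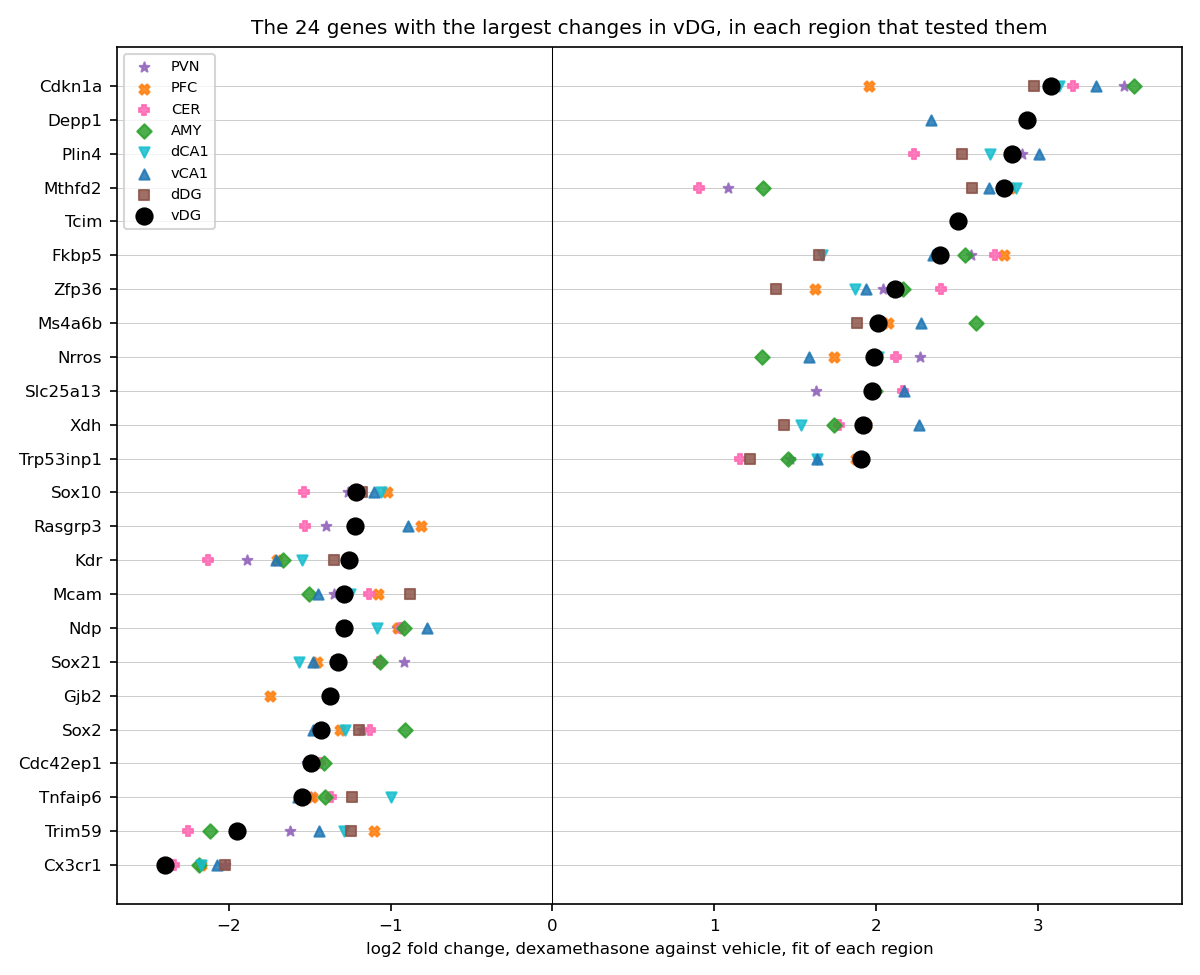
Log2 fold change, dexamethasone against vehicle, of the 24 genes with the largest changes in vDG, with vDG as large black circles and each other region that tested the gene as a smaller symbol. The symbols of a gene lie on the same side of 0 in every region shown, and Mthfd2 shows AMY, CER and PVN below the other regions.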

How the data were processed

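The authors deposited whole-number counts of 27998 genes in 30 vDG and 205 other libraries. Per the submitters' processing notes, FastQC 0.11.4, cutadapt, UMI-tools 0.5.4, STAR 2.6.0a, featureCounts 1.6.4, DESeq2 1.30.1 and R 4.0.5 were used with build mm10. Their parameters and the use of strand are not given in the sources used here, so overlapping genes are named as such. The authors also deposited a vDG table of variance-stabilised log2 values, which holds 29 of the 30 libraries (dexamethasone replicate 3 is not in it) and served as an alternative with limma.

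Genes passing filterByExpr were scaled by trimmed means of M values (TMM) and tested with edgeR 4.0.16 (glmQLFit, glmQLFTest), with no covariates, at a Benjamini-Hochberg adjusted p of 0.05. Differences between regions were region-by-treatment terms in joint fits. CPM use TMM-scaled totals. Unadjusted p is counted at 0.05. Fits were tested on simulated counts with 200 changed genes. No 2 libraries agreed within sampling noise. Other software was DESeq2 1.42.0, limma 3.58.1 and sva 3.50.0 in R 4.3.3, and matplotlib 3.10.9, pandas 2.3.3, numpy 2.4.6 and scipy 1.17.1 in Python 3.11.15.

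The lists and the rule for named genes were chosen with earlier results of these data known, and 8 further lists after the values were seen. The rule takes the 12 largest rises and falls with a mean of at least 10 CPM (3 unannotated models skipped), up to 5 changed members per list by p, or the member with the smallest p where under 2 changed, Nr3c1, Nr3c2 and Fkbp5, the 3 smallest p per difference test, and markers. It named 80 genes, of which 70 changed. Others were named after their values were seen. Values of some single genes are not reported here. Promoters are RefSeq's (GRCm38.p6).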

Additional observations from a re-analysis of the deposited data

How the results depend on the processing

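The count of 366 changed genes was recomputed under other settings and in fits without 1 library each. It moved by over 1.5 times in 2 settings. A minimum of 10 counts in every library left 4805 genes to test and 194 changed, and 7 surrogate variables gave 622, with 355 of the 366 among them and the cause not tested. Elsewhere the count lay between 332 (without the 4 libraries of RIN under 5) and 549 (DESeq2), and leaving out 1 library gave 337 to 393. With the replicate block 433 genes passed, 354 of them among the 366, and with date and plate as factors 443, with 359 shared. Equal numbers shared a plate in 15 of 15 pairs and the punching date in 14 of 15, but the correlation of paired deviations exceeded 0.1 in only 10 of 15 pairs (range -0.03 to 0.39), and 1 vehicle library correlated best with its own number, so the numbers were not treated as pairs. The block ended the calls of Hist2h2be, Neu4, Ppard and Prodh among the genes named in the text, and with the animal as a replicate block the 3 difference tests still gave 0. Within punching dates, 97.0% to 100% of the changed genes kept their direction (1 date held 1 vehicle library and gave no value), and within plates 99.2% to 100%, which is no independent check because the same libraries called them. Of the 70 named changed genes, 64 passed under each alternative that tested them and left out no single library, and 63 passed in all 30 fits without 1 library. The 6 others were Acaca, Bhlhe41, Ier5, Ppard, Rora and Slc38a2, and no named call reversed. Of the other changed genes named in the text, those that lost a call are given beside it or with the fits that left out 1 library. Calls in the fits without 1 library were followed for these 70 genes and the 105 changed list members, and not for other named genes. Genes that did not pass but did so under some alternatives included Hspb8, Klhl20, Osbpl2 and Scn3b. List counts that moved by over 1.5 times were, in both DESeq2 and limma, the lower microglial markers (5 for 3), the lower MAPK and ErbB genes (2 for 1) and the higher one-carbon genes (1 for 2, also with upper-quartile scaling). In DESeq2 the lower astrocyte markers moved (2 for 1). In limma the higher basement membrane genes (1 for 3), higher sterol genes (0 for 1), higher precursor markers (0 for 1), lower activity genes (0 for 1), lower growth factor genes (1 for 0) and lower interferon genes (2 for 0) moved. The filter kept low genes out of the test, and the lowest mean of a changed gene was 12.2 CPM, whereas without a filter 513 genes passed.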
